A study of Mus musculus with 36 samples.

Results

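The ribosome-protected fragments (RPFs) of fraction 5/6 from FMR1 KO mouse brain were compared, gene by gene, with the RNA of whole FMR1 KO brain. The comparison used 6 of the 36 libraries of the series, 3 of RPFs and 3 of RNA, chosen by their labels. Fraction 5/6 holds the ribosome clusters that enter a sucrose gradient without reaching its pellet, where heavier granules collect. The FMR1-KO animals lack FMRP, the product of Fmr1, in all cells, and the WT animals used beside them were C57BL/6. Each preparation pooled 10 brains from mice of postnatal day 5, homogenized in buffer with 10 mM MgCl2, and was digested with the standard amount of nuclease. The 3 RPF libraries carried different linkers and were joined before reverse transcription. The study calls its replicates biological, and p-values measure the spread between these libraries. Beside the 6 libraries, 3 of FMR1 KO pellet RPFs and 6 of WT fraction 5/6 RPFs and WT RNA were used to see where fraction 5/6 of the KO differed. A low nuclease preparation of FMR1 KO fraction 5/6, pellet and RNA, with 3 libraries each, served for alternatives. It was made in 2.5 mM MgCl2, and its RPFs were digested in the cold with nuclease not adjusted to the ribosomes, so the parts of buffer, nuclease and temperature in its values cannot be told apart.

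A translating ribosome shields a short stretch of mRNA from nuclease. The number of such fragments from a gene, set against the gene's RNA, reports how densely its mRNA is covered by the ribosomes sampled. This ratio is called ribosome occupancy here, while the study uses the term for RPFs of the pellet over whole-brain RNA. The ratio rises with more frequent initiation and with slower or paused elongation alike. It also depends on the share of a gene's ribosomes that sediment in the fraction sampled. Ribosomes in the pellet or in other fractions are not counted, while the RNA is that of whole brain. In the developing brain part of the ribosomes sit in large clusters and granules, and FMRP is an RNA-binding protein that associates with them and with long neuronal mRNAs. Occupancy is given as the log2 difference of RPFs and RNA in CPM, the count of a gene per 1e6 counts of its library, scaled by the trimmed mean of M-values (TMM), so that 0 is close to the typical gene and a value is a level relative to other genes.

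The RPF libraries held 6765065 to 27263089 counts and the RNA libraries 122347383 to 147216378. Cdk8 took 36.7% to 52.9% of the RPF counts and at most 0.0338% of the RNA counts, and it was left out with the 6 genes of chromosome Y. One count was then worth 0.115 to 0.239 CPM in RPFs and 0.00492 to 0.00617 CPM in RNA. The log values of the libraries correlated at 0.952 to 0.961 among RPFs, at 0.991 to 0.998 among RNA libraries and at 0.836 to 0.883 between the groups, over genes. RPF replicate 1 had 30.3% of its counts in its 10 highest genes, replicate 3 had 14.5%, and the RNA libraries had 4.97% to 6.49%. Chromosome Y gave 422 to 1252 counts in the RPFs and only 14 to 26 in the much deeper RNA libraries, or 72.3 to 98.6 against 0.107 to 0.213 CPM before scaling, and the part of this in the results was not tested. Marker genes of brain cells were present. The summed level of 7 neuronal markers was 12900 to 14100 CPM in RPFs and 5860 to 6140 CPM in RNA. Tubb3, Snap25, Map2, Stmn2 and Dcx were higher in RPFs. Rbfox3 (105 to 129 against 149 to 182 CPM) and Syt1 (51.3 to 65.2 against 76.0 to 91.1 CPM) were lower. The sum of 5 astroglial markers was 1740 to 2010 CPM against 590 to 681 CPM, though Aqp4 was lower in RPFs. That of 5 oligodendrocyte lineage markers was lower, at 172 to 188 against 310 to 419 CPM. The sum of 5 red blood cell markers was also lower, at 9.06 to 16 against 167 to 274 CPM. Apoa1, the only liver marker in the table of the 3 listed, was at most at 0.459 CPM against at most 0.59 CPM. In RNA of whole brain, fewer cells of a type and less RNA per cell cannot be told apart.

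Fmr1 (ENSMUSG00000000838, chromosome X, 68678541 to 68717963, GRCm38) was measured first, since its loss defines the animals. With all standard groups scaled together it was at 8.29, 8.4 and 8.96 CPM in the KO fraction 5/6 RPFs and at 9.46, 10.1 and 10.3 CPM in the KO RNA. The WT RNA libraries held 36.0, 35.2 and 39.7 CPM, and WT fraction 5/6 held 118 and 124 CPM in replicates 1 and 2. The library labelled WT fraction 5/6 replicate 3 held 3.96 CPM, below every KO library of that fraction, so results that use it are given with and without it. In the fit of the 6 KO libraries alone its RPFs were at 10.2 to 11.0 CPM and its RNA at 11.9 to 12.8 CPM, an occupancy of -0.25 (SE 0.12, edgeR's quasi-likelihood test, Benjamini-Hochberg adjusted p = 0.115). The paralogs, which encode related RNA-binding proteins, were higher in RPFs. Fxr1 was at 145, 162 and 121 CPM in RPFs and at 42.3, 50.2 and 41.2 CPM in RNA, an occupancy of 1.68 (SE 0.15, adjusted p = 5.17e-05). Fxr2 had an occupancy of 1.12 (SE 0.12, adjusted p = 0.000158).

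Of 16187 genes tested, 4807 (29.7%) were higher in RPFs than in RNA and 5361 (33.1%) were lower at an adjusted p under 0.05, 62.8% in all. With a log2 difference of at least 1 as well, 2795 genes (17.3%) were higher and 3644 (22.5%) lower, 39.8% in all. The 3 RPF libraries lay wholly above the 3 RNA libraries in 5049 genes (31.2%) and wholly below in 6133 (37.9%). Counts of class members below are to be read against these shares. The median occupancy was -0.10, with quartiles of -1.01 and 0.75. Without TMM, on library size alone, the median was -1.02 and the share of higher genes among the calls fell from 47.3% to 12.8%, so the directions given here are relative to the scaling. On library size alone Actb, Hspa8, Ywhag and Cx3cr1, all called higher below, had values under 0. In 39 gene classes the medians ran from -1.93 to 1.73, apart from the mitochondrially encoded mRNAs, which lay far below. Chaperones, aminoacyl-tRNA synthetases, proteasome subunits and tubulins were at the top. Above the mitochondrially encoded mRNAs, the lowest were blood and choroid plexus markers, which held 6 red blood cell genes at a median of -3.46 and 5 choroid plexus genes at 1.02, then ribosomal proteins, voltage-gated channels, histones and mRNAs with upstream open reading frames. Some class directions turned with the processing. Of 40 medians, that of all genes included, 15 changed sign on library size alone, 10 in the low nuclease preparation, 8 there against RNA replicate 1 alone, 6 for low nuclease RPFs against standard RNA, 5 with genes that have copies left out and 3 when scaled by coding share. Those that turned on library size alone were granule proteins, actins, astrocyte markers, cell cycle genes, glycolytic enzymes, immediate early genes, microglial and vascular markers, motors, mitochondrial ribosomal proteins, transcription factors, secreted signals, the nuclear-encoded respiratory chain, the Shah list, the synaptic vesicle cycle and initiation factors. Those that turned for low nuclease RPFs against standard RNA were actins, cell cycle genes, matrix genes, glutamate and GABA receptors, myelin genes and transcription factors. In the low nuclease preparation RNA replicates 2 and 3 held 85.0% and 83.4% of their counts in 10 genes. The histone median ran from -2.37 to 1.35 over the alternatives. Those of chaperones (0.85 to 1.83), synthetases (0.69 to 1.66), proteasome subunits (0.37 to 1.73), ribosomal proteins (-2.73 to -0.52) and channels (-2.51 to -0.45) kept their sign in every alternative run. With genes that have copies left out, however, the ribosomal protein median rested on 1 of 80 members.

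**Figure D1:**
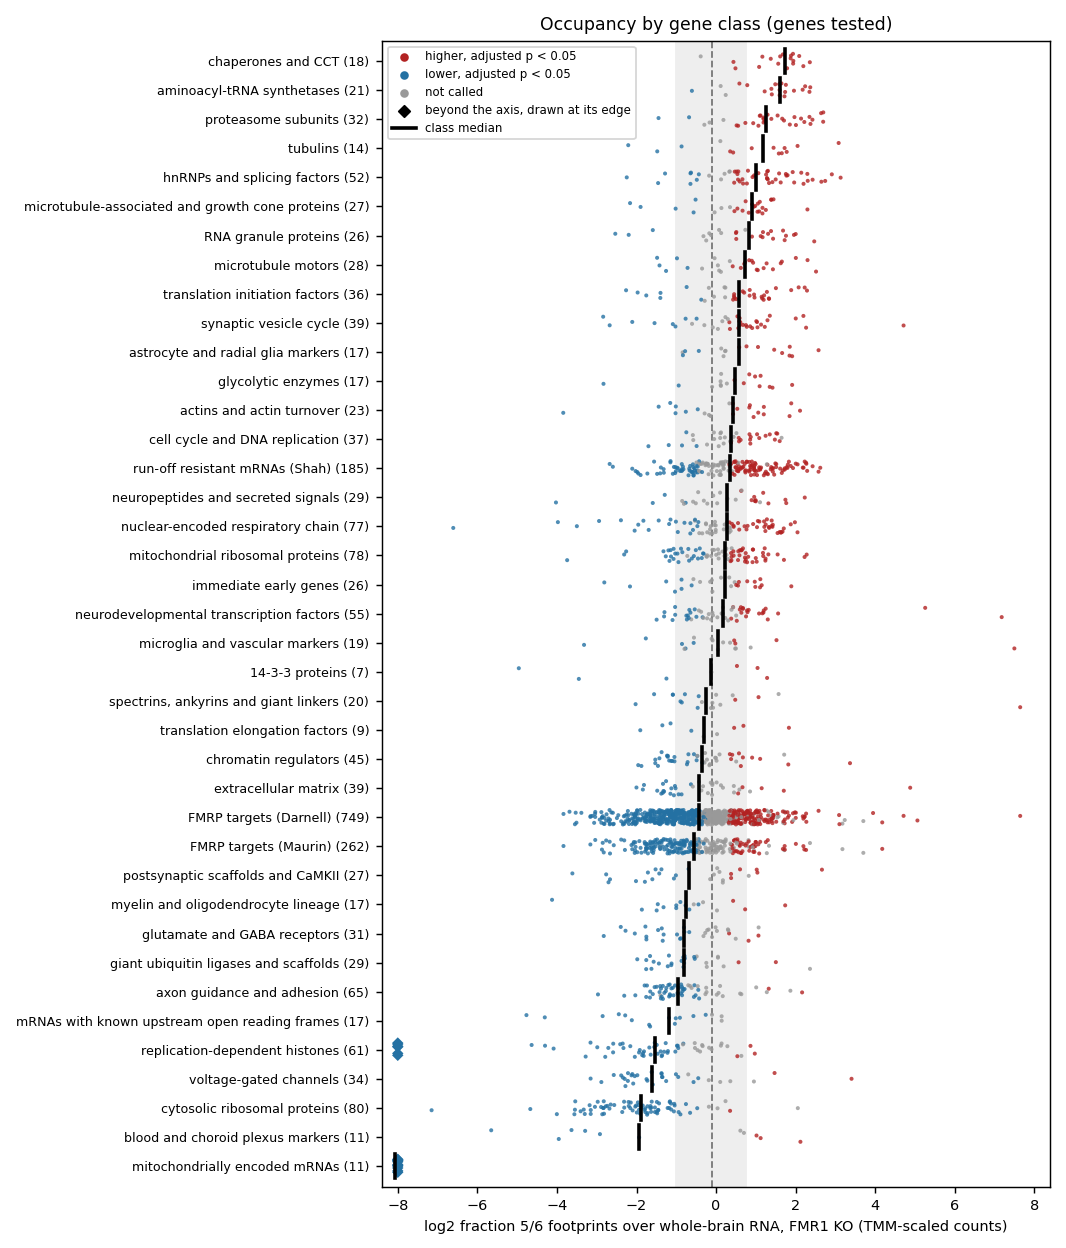
Occupancy of each tested member (points) in 39 gene classes, as log2 of fraction 5/6 RPFs over whole-brain RNA, ordered by class median (black bar), with the number tested in brackets. The dashed line and grey band are the median (-0.10) and quartiles (-1.01 and 0.75) of all 16187 genes, diamonds mark members beyond the axis, and class medians run from 1.73 for chaperones down to beyond -8 for mitochondrially encoded mRNAs.

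The components of translation itself fell on both sides. The enzymes that charge tRNAs were higher in RPFs in 18 of 21 cases, with 1 lower and a median occupancy of 1.60. Rars, which charges tRNA with arginine, was at 131, 166 and 126 CPM in the RPF libraries and at 26.4, 28.5 and 27.0 CPM in the RNA libraries. The groups did not overlap, and its occupancy was the highest of the class at 2.37 (SE 0.14, adjusted p = 1.36e-05). The alanine and glycine enzymes Aars and Gars, the class members with most RNA, were at 1.64 (SE 0.17) and 1.49 (SE 0.14). The single lower member was Fars2, the mitochondrial phenylalanine enzyme, at -0.61 (SE 0.13, adjusted p = 0.00403). Of 36 initiation factors, 23 were higher and 7 lower, with a median of 0.59. They ranged from Eif2b3, a subunit of the exchange factor that recharges eIF2, at 2.28 (SE 0.13), to Eif1, which guards start codon choice, at -2.26 (SE 0.15). Eif4g2, a scaffold for initiation without the cap-binding protein, had 501, 376 and 543 CPM in RPFs against 1184, 1264 and 1303 CPM in RNA, an occupancy of -1.40 (SE 0.18, adjusted p = 0.000343), or of 0.14 in the low nuclease preparation. Of 9 elongation factors, 3 were higher and 4 lower, with a median of -0.31.

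Cytosolic ribosomal proteins were mostly lower. Of 80 members, 75 were lower and 1 higher, with a median of -1.90 (-1.90, -2.08 and -1.63 in the 3 RPF libraries). The medians of the 47 large and the 33 small subunit proteins were -1.78 and -2.01. Summed over the class, RPFs held 5450, 5693 and 7443 CPM and RNA held 16922, 20943 and 16399 CPM, so the class as a whole was at 0.343 of its RNA level. Rpsa, a small subunit protein, was at 74.0, 97.0 and 101.7 CPM in RPFs and at 772, 884 and 767 CPM in RNA, an occupancy of -3.15 (SE 0.18, adjusted p = 1.33e-05). Rplp0, of the ribosomal stalk, was at -2.82 (SE 0.19). Rpl39, one of the smallest large-subunit proteins, was nearly absent from RPFs, with 0.701, 0.344 and 0.955 CPM against 85.0, 95.7 and 75.9 CPM in RNA (-7.15, SE 0.26, adjusted p = 8.24e-06). The highest value belonged to Rpl22 at 2.05 (SE 0.89, adjusted p = 0.0761), whose RPF libraries spread from 36.0 to 908 CPM around an RNA level of 114 to 131 CPM, so that it was not called.

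Ribosomal protein genes have many processed copies in the genome, and a short fragment of such a gene can match several places. To see how far this moves with occupancy, the share of each gene's coding 29-base words that also occur in a gene at another place was computed. This measure was added after the occupancies were known, and how the aligned fragments were treated was not tested. Of the tested genes, 12.6% had over 10% of their words elsewhere. In these 2045 genes 20.7% were higher and 47.8% lower, with a median occupancy of -0.62, against 31.0%, 31.0% and -0.05 in the 14114 genes with at most 10%. In the 334 genes with over 90% of their words elsewhere, 5.1% were higher and 78.7% lower and the median was -2.28. Of the ribosomal proteins, 79 of 80 were over 10%, and the class median of the share was 96.0%. One member with a small share, 11.3%, named after its values were seen, was Rpl8. It was at 427, 441 and 459 CPM against 330, 375 and 335 CPM, an occupancy of 0.35 (SE 0.13, adjusted p = 0.0433).

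**Figure D2:**
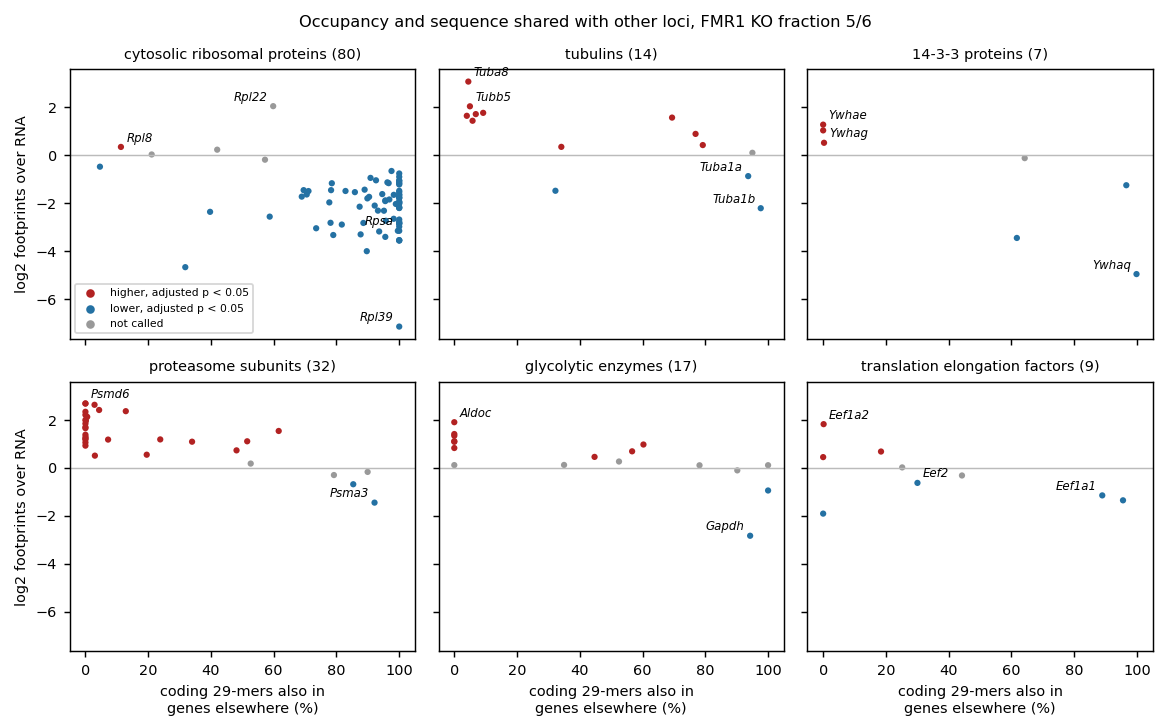
Occupancy (vertical axis, log2 RPFs over RNA) of the tested members of 6 classes against the percent of each gene's coding 29-base words found in genes elsewhere (horizontal axis). Members with few shared words lie mostly above 0 outside the ribosomal proteins, such as Psmd6 at 2.69, and members near 100% lie mostly below 0, such as Rpl39 at -7.15.

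Members of other housekeeping families with different shares were compared in the same way. The elongation factor 1 alpha isoforms carry aminoacylated tRNA to the ribosome. Eef1a2, with 0.15% of its words elsewhere, was at 1164, 1585 and 1122 CPM in RPFs and at 358, 436 and 296 CPM in RNA (1.83, SE 0.22, adjusted p = 0.00023). Its relative Eef1a1, with 89.0%, was at 1277, 2051 and 1538 CPM against 3249, 4264 and 3248 CPM (-1.15, SE 0.23, adjusted p = 0.00352), though at 0.040 in the low nuclease preparation, or -0.38 against its RNA replicate 1 alone. The 14-3-3 proteins are phosphoserine-binding adaptors, and of the 7 tested 3 were higher and 3 lower. Ywhae, with no shared words, was at 2945, 2883 and 2405 CPM in RPFs and 1073, 1248 and 1066 CPM in RNA (1.28, SE 0.17), and Ywhag, with 0.28%, was at 0.52 (SE 0.15), or -0.37 on library size alone. Ywhaq, with 99.9%, was at 10.5, 6.77 and 7.64 CPM against 249, 277 and 247 CPM (-4.96, SE 0.20, adjusted p = 8.67e-06). Among 17 glycolytic enzymes, 9 higher and 2 lower, the aldolase Aldoc (1.91, SE 0.22) had no shared words and Gapdh (-2.83, SE 0.20) had 94.3%. Other members, named after their values were seen, did not follow that order. The elongation factor paralog Eif5a2, with no shared words, was the lowest of its class at -1.91 (SE 0.21, adjusted p = 0.000164), though at 0.69 when scaled by coding share and at 0.11 in the low nuclease preparation (-0.056 against RNA replicate 1). Ldha, a lactate dehydrogenase subunit with 60.3%, was at 0.98 (SE 0.16), the core proteasome subunit Psma4 with 61.6% was at 1.54 (SE 0.12), and Tubb2a with 69.4% was at 1.58 (SE 0.19). Of the chaperones with over 10% of their words elsewhere, 7 of 8 were higher with a median of 1.42, and of such hnRNPs and splicing factors 14 of 20 were higher. How reads from copies were counted was not tested, so values of genes with near-identical copies are uncertain. In the replication-dependent histones, 58 of the 61 tested members were over 10%, 45 were lower and 3 higher, and the median was -1.54, or -1.47 with the 6 members that had no RPF at their bounds. The class pattern of histone names was widened after the values of 8 members had been seen. The 3 members at or under 10% had a median of 0.53, and one of them was the linker histone H1f5 at 0.97 (SE 0.28, adjusted p = 0.0161).

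**Figure D3:**
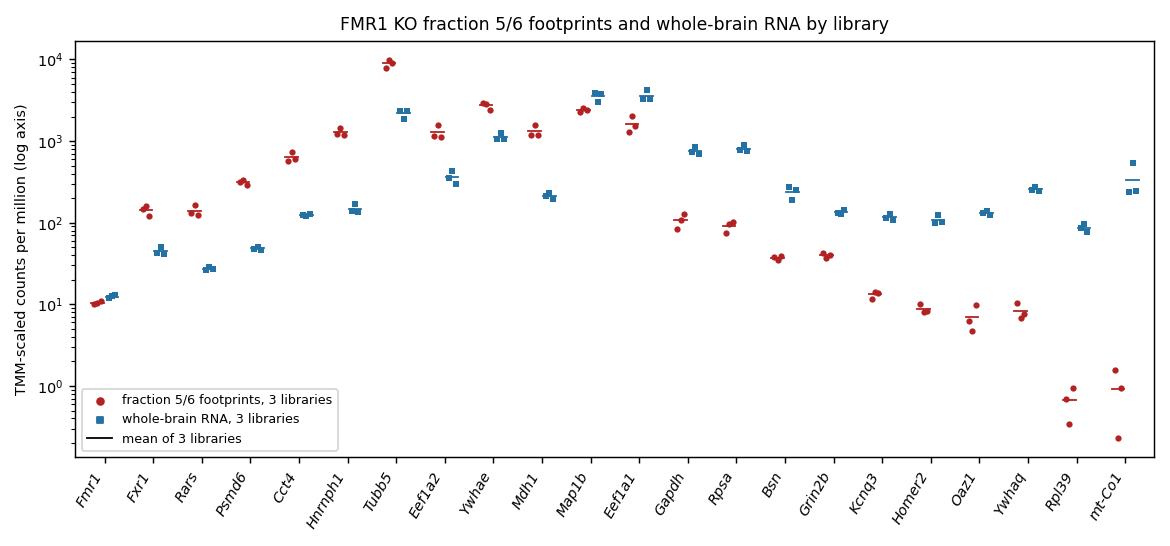
Levels of 22 genes in each library, as TMM-scaled CPM on a log axis, for the 3 FMR1 KO fraction 5/6 RPF libraries (red circles) and the 3 FMR1 KO whole-brain RNA libraries (blue squares), with group means as lines. The RPF points lie above the RNA points from Fxr1 to Mdh1 and below them from Map1b to mt-Co1, and for Fmr1 they lie just below, at 10.2 to 11.0 CPM against 11.9 to 12.8 CPM.

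Proteasome subunits and chaperones were mostly higher. Of 32 proteasome subunits, 27 were higher and 2 lower, with a median of 1.26. In the regulatory particle, which unfolds the substrates, 17 of 18 were higher with a median of 1.76, and in the core, which cuts them, 10 of 14 were higher and 2 lower with a median of 1.14. Psmd6, of the regulatory particle, was at 314, 332 and 294 CPM in RPFs and 47.7, 50.8 and 46.8 CPM in RNA (2.69, SE 0.12, adjusted p = 8.67e-06). The core subunit Psma3 was at -1.45 (SE 0.11), and 92.1% of its words occurred elsewhere. All 20 subunits with at most 10% of their words elsewhere were higher. Of 18 chaperones, 17 were higher and none lower, with a median of 1.73. The 7 subunits of the CCT chaperonin, which folds tubulin and actin, lay between 1.87 and 2.35. Cct4 was the highest, with 565, 733 and 600 CPM in RPFs and 124, 120 and 126 CPM in RNA (SE 0.15, adjusted p = 1.78e-05). Hsp90ab1, an abundant cytosolic chaperone, was at 3094, 4540 and 3430 CPM against 1130, 1240 and 1089 CPM (1.68, SE 0.20), and Hspa8, the constitutive Hsp70, was at 0.49 (SE 0.16, adjusted p = 0.0292).

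RNA-binding proteins of the nucleus and of granules were higher as well. Of 20 hnRNPs, 17 were higher and 2 lower (median 1.29), and of 32 splicing factors 22 were higher and 6 lower (median 0.63). Hnrnph1, a splicing regulator that binds G-rich RNA, was at 1214, 1463 and 1181 CPM in RPFs and at 140, 167 and 134 CPM in RNA, which made it the highest of the class at 3.13 (SE 0.18, adjusted p = 1.28e-05). Its relative Hnrnpf, with 97.9% of its words elsewhere, was the lowest at -2.25 (SE 0.21). The neuronal splicing factor Nova2 was also lower, at -0.65 (SE 0.12, adjusted p = 0.00238), with 0.30% of its words elsewhere. Of 26 RNA granule proteins, 16 were higher and 3 lower, with a median of 0.82. They ran from Ncl, the nucleolar protein nucleolin, at 2.47 (SE 0.17), to Ybx1, which packages mRNA, at -2.53 (SE 0.32, 69.5% of its words elsewhere).

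The mitochondrion gave 2 contrasting sets. The 11 tested mRNAs made inside it were all lower, with a fitted median of -9.70, or -8.81 with the 5 members that had no RPF at their bounds. Summed, they held 3.33, 0.688 and 2.39 CPM in RPFs and 1037, 3101 and 1082 CPM in RNA. mt-Co1, of cytochrome c oxidase, was at 1.58, 0.229 and 0.955 CPM against 239, 533 and 242 CPM. mt-Nd1 had 3 RPF counts in all against 284686 RNA counts, and mt-Nd2, which had none, was at least 911-fold lower against a floor of 3 counts over the group. The nuclear-encoded subunits of the respiratory chain, made on cytosolic ribosomes, were spread, with 33 of 77 higher, 21 lower and a median of 0.27. The ATP synthase subunits Atp5a1 and Atp5b were at 1.98 (SE 0.17) and 1.40 (SE 0.16), with 2116, 2721 and 2284 CPM in RPFs and 588, 644 and 573 CPM in RNA for Atp5a1. Atp5l, a small subunit of the same enzyme with all of its words elsewhere, was at 0.175, 1.15 and 0.478 CPM against 63.1, 79.9 and 57.0 CPM (-6.61, SE 0.37, adjusted p = 1.27e-05). The 41 members with at most 10% of their words elsewhere had a median of 0.79 with 28 higher, and the 36 above it had -0.35 with 5 higher. Proteins of the mitochondrial ribosome, also made in the cytosol, had a median of 0.23, with 34 of 78 higher and 26 lower.

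Most tubulin mRNAs were higher in RPFs than in RNA. The 14 tubulins together held 19358, 23709 and 22910 CPM in RPFs and 11657, 8497 and 11051 CPM in RNA, and 10 were higher and 3 lower. All 7 beta tubulins, which pair with alpha tubulins to build microtubules, were higher with a median of 1.58. Tubb5 was at 7972, 9949 and 9114 CPM in RPFs and at 2365, 1850 and 2330 CPM in RNA (2.05, SE 0.20, adjusted p = 9.21e-05). Of 5 alpha tubulins, 2 were higher and 2 lower. The lowest was Tuba1b at -2.21 (SE 0.24, 97.7% of its words elsewhere), and Tuba1a, the major alpha tubulin of young neurons, was at -0.87 (SE 0.25, adjusted p = 0.0187, 93.7%), or 0.33 in the low nuclease preparation (-0.0025 against RNA replicate 1). Tuba8, a minor isoform with 4.47%, was at 3.08 (SE 0.41).

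The deposited peaks of RPF coverage, given as positions on transcripts, fell in coding sequence in 95.9% to 97.8% of the 11389 to 24548 peaks per library. A total of 1215 peaks lay within 6 nt of each other in all 3 libraries, in 767 tested genes, of which 379 were higher and 217 lower in occupancy, with a median of 0.38. A gene enters this set only with enough RPFs for a peak in each RPF library, so these occupancies are no test. Among the tallest were peaks in tubulins. The tallest in Tubb2b by its height in replicates 1 and 2, at heights of 1848, 3272 and 1290 fragments, is given as the 29 bases around the middle of the peak, beside the same coding positions of its relatives, to show how these tubulins differ at 1 shared peak position. Over the whole genes, 76.9% of the 29-base words of Tubb2b, 69.4% of those of Tubb2a and 79.2% of those of Tubb4b were found elsewhere, against 5.82% for Tubb3 and 4.98% for Tubb5. Capitals mark bases that differ from the first sequence, all are in coding exons, and the sequences come from GENCODE M21 transcripts on GRCm38. The Tubb2b set starts at base 591 of the coding sequence, in exon 4, at chr13:34128190-34128218 (minus strand) for Tubb2b, chr13:34075187-34075215 (minus) for Tubb2a, chr8:123420920-123420948 (plus) for Tubb3, chr17:35835698-35835726 (minus) for Tubb5 and chr2:25223027-25223055 (minus) for Tubb4b.
Tubb2b: tgaaacctactgcatcgataatgaggctc
Tubb2a: tgaaacctaTtCcatTgaCaatgaggctc
Tubb3: CgaGacctactgcatcgaCaatgaAgcCc
Tubb5: tgaGacctactgcatcgaCaaCgaggcCc
Tubb4b: tgaGacctaTtgTatTgataatgaAgcAc
The beta tubulins differed from Tubb2b at 4 to 6 of the 29 bases. The occupancy of Tubb2b was 0.89 (SE 0.20, adjusted p = 0.00545), and that of Tuba1c was 0.11 (SE 0.15, adjusted p = 0.545).

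Other cytoskeletal classes were mixed. Of 27 microtubule-associated and growth cone proteins, 19 were higher and 5 lower, with a median of 0.91. Stmn4, a stathmin that destabilizes microtubules, was the highest at 2.29 (SE 0.15), and Dpysl3, which steers growth cones, was at 3720, 4059 and 3879 CPM in RPFs and 2082, 1731 and 2091 CPM in RNA (0.98, SE 0.17, adjusted p = 0.00147). Map1b, a large microtubule-binding protein and a known FMRP target, went the other way, with 2301, 2531 and 2392 CPM against 3891, 3042 and 3761 CPM (-0.57, SE 0.17, adjusted p = 0.0225). Of 28 motor subunits, 17 were higher and 5 lower, with a median of 0.72. The dynein intermediate chain Dync1i2 was at 2.51 (SE 0.16), while the dynein heavy chain Dync1h1, a much longer protein, was at -1.48 (SE 0.21, adjusted p = 0.000531), and the kinesin Kif21b was at -0.98 (SE 0.13). Among 23 actins and regulators of actin turnover, 12 were higher and 7 lower. Actb was at 6233, 7916 and 7849 CPM in RPFs and 4033, 4222 and 4090 CPM in RNA (0.83, SE 0.18, adjusted p = 0.00522), or at -0.021 on library size alone. Arpc1a, of the complex that branches actin, was at 2.11 (SE 0.14), and Tmsb10, a very short actin-binding peptide with 41.6% of its words elsewhere, was at -3.84 (SE 0.23).

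Synaptic genes were found on both sides. Of 39 genes of the synaptic vesicle cycle, 24 were higher and 8 lower, with a median of 0.58. The vesicle protein Vamp2 was lower (-1.02, SE 0.17, adjusted p = 0.00134), as was the calcium sensor Syt2 (-2.84, SE 0.12), which was the lowest of the class. The class maximum, Ap2a1 of the clathrin adaptor (4.71, SE 1.09), came with 12720, 6929 and 336 CPM in RPFs against 244 to 264 CPM in RNA, so its value rested on replicates 1 and 2. Of 21 postsynaptic scaffolds, by contrast, 3 were higher and 12 lower, with a median of -1.01. Homer2, which links receptors to calcium stores, was at 10.0, 8.14 and 8.36 CPM in RPFs and at 97.9, 123.6 and 102.1 CPM in RNA (-3.61, SE 0.15, adjusted p = 8.67e-06). Nrgn, a calmodulin-binding protein of dendritic spines, was at -1.43 (SE 0.22). Among the 6 CaMKII genes 3 were higher and 2 lower.

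Receptor and channel genes were more often lower than higher. Of 31 glutamate and GABA receptor genes, 17 were lower and 3 higher, with a median of -0.80, which was 0.052 for low nuclease RPFs against standard RNA. Of 12 ionotropic glutamate receptors 7 were lower and none higher (median -0.74), of 8 metabotropic receptors 5 were lower and 1 higher (-0.84), and of 11 GABA-A receptors 5 were lower and 2 higher (-0.19). The NMDA receptor subunit Grin2b was at 42.4, 37.0 and 40.6 CPM in RPFs and 132, 127 and 145 CPM in RNA (-1.75, SE 0.11, adjusted p = 1.7e-05). The kainate receptor subunit Grik5 was at -2.82 (SE 0.26) and the GABA-B receptor Gabbr1 at -1.32 (SE 0.12). Of 34 voltage-gated channel genes, 27 were lower and 2 higher, with a median of -1.61 (-1.48, -1.60 and -1.80 in the RPF libraries). The 14 potassium channels had 13 lower and none higher, with a median of -2.17, and the 20 sodium and calcium channel genes had 14 lower and a median of -1.31. Kcnq3, of the M-current, was at 11.8, 14.1 and 13.9 CPM in RPFs and 115, 129 and 109 CPM in RNA (-3.15, SE 0.13, adjusted p = 8.67e-06). The highest, Cacna1d (3.40, SE 1.20, adjusted p = 0.0386), was at 51.0, 457 and 7.17 CPM in RPFs, overlapping the RNA at 15.7 to 16.7 CPM, and was at -0.39 in the low nuclease preparation (0.15 against RNA replicate 1).

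Adhesion and guidance molecules were lower in 46 of 65 genes and higher in 2, with a median of -0.95. Among them, 9 of 14 ligands, 17 of 21 receptors and 20 of 30 adhesion molecules were lower. Adgrl1, a latrophilin, was at 36.3, 34.9 and 45.9 CPM in RPFs and 218, 139 and 222 CPM in RNA (-2.31, SE 0.22, adjusted p = 7.04e-05), and the neurexin Nrxn2 was at -1.34 (SE 0.21). Of 39 extracellular matrix genes, 18 were lower and 5 higher, with a median of -0.43 (0.092 for low nuclease RPFs against standard RNA). Agrn, which organizes synapses, was at -1.06 (SE 0.23). Of 29 giant ubiquitin ligases and scaffolds, 20 were lower and 2 higher, with a median of -0.81, among them Lrp1, a lipoprotein receptor, at -1.98 (SE 0.18), and Nbea, a neuronal trafficking protein, at -0.54 (SE 0.12). Of 45 chromatin regulators, 22 were lower and 10 higher (median -0.35), with the demethylase Tet3 at -1.96 (SE 0.12) and the remodeler Chd3 at -1.10 (SE 0.13). Of 7 spectrins and ankyrins, which hold the membrane skeleton, 5 were lower and none higher (median -0.86), and of 13 other giant linkers 4 were lower and 3 higher (median -0.0945). Of 55 neurodevelopmental transcription factors, 21 were higher and 15 lower (median 0.17), and of 37 cell cycle genes 16 were higher and 5 lower (median 0.38).

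Genes whose translation is known to be held back by short upstream reading frames or frameshifting were at the low end. None of 17 was higher and 14 were lower, with a median of -1.18. Oaz1, the antizyme that limits polyamines, was at 6.31, 4.70 and 9.79 CPM in RPFs and 133, 141 and 126 CPM in RNA (-4.31, SE 0.25, adjusted p = 1.43e-05), and Amd1, a polyamine synthesis enzyme, was at -4.77 (SE 0.33). Both have over 90% of their words elsewhere, but the 12 members with at most 10% also had none higher and 9 lower, with a median of -0.96. The highest was Ifrd1 at 0.14 (SE 0.12, adjusted p = 0.342). Of 26 immediate early genes, 10 were higher and 7 lower, from Atf3 (1.89, SE 0.32) to Jund (-2.81, SE 0.15), both transcription factors.

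Markers of the cell types did not move as one. Of 17 astrocyte and radial glia genes, 9 were higher and 3 lower, with a median of 0.58, led by the lipid carrier Apoe at 184, 254 and 206 CPM in RPFs and 46.4, 21.3 and 40.7 CPM in RNA (2.57, SE 0.30, adjusted p = 0.000195). In the low nuclease preparation Apoe was at -1.06 and the astrocyte median at -0.71, or at -0.78 and -0.61 against RNA replicate 1 alone. The radial glia protein Fabp7 was at 1.84 (SE 0.16). Of 17 oligodendrocyte genes, 11 were lower and 3 higher, with a median of -0.77 (0.22 for low nuclease RPFs against standard RNA), although Cnp, an enzyme of myelin, was at 420, 526 and 356 CPM against 128, 151 and 112 CPM (1.74, SE 0.19). Mbp, the main myelin protein, was at -1.0 (SE 0.30; 0.20 in the low nuclease preparation) and Mog, of the outer myelin surface, at -4.12 (SE 0.38). All 6 red blood cell genes were lower, and the globin Hbb-bs was at 1.23, 0.803 and 5.73 CPM in RPFs and 117, 133 and 87.6 CPM in RNA (-5.65, SE 0.59; 0.063 in the low nuclease preparation, -0.58 against RNA replicate 1 there), with 94.0% of its words elsewhere. Of 9 vascular genes, 2 were lower and none higher, and of 5 choroid plexus genes 3 were higher. Of 10 microglial genes, 4 were higher and 3 lower, with Cx3cr1 at 0.45 (SE 0.10, adjusted p = 0.00558; -0.43 on library size alone) and Tmem119 at 0.175, 0 and 0 CPM against 0.423 to 0.679 CPM. In the secreted signals (29 genes, 11 higher and 4 lower), the growth factor Igf2 was at 8.94, 4.36 and 15.8 CPM against 168, 101 and 188 CPM (-4.02, SE 0.47).

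The 3 lists that the study drew from other work were described the same way. Of 749 FMRP targets from Darnell and colleagues, 392 (52.3%) were lower and 165 higher, with a median of -0.44, beside 33.1% and 29.7% of all genes. The summed level of the list went the other way, at 167578 to 220618 CPM in RPFs and 149893 to 156485 CPM in RNA. That sum includes Plec, at 14610, 13850 and 656 CPM in RPFs against 29.9 to 63.7 CPM in RNA. Plec had an occupancy of -1.60 in the low nuclease preparation. Of 262 targets from Maurin and colleagues, 145 (55.3%) were lower and 46 (17.6%) higher, with a median of -0.57. The lowest of both lists was Adcy1, an adenylyl cyclase, with 27.2, 21.7 and 32.2 CPM in RPFs and 442, 320 and 392 CPM in RNA (-3.84, SE 0.21). In the list of Shah and colleagues, mRNAs whose ribosomes resisted run-off, 89 of 185 (48.1%) were higher and 50 (27.0%) lower, with a median of 0.34. The median was under 0 on library size alone, and it was -0.90 in the low nuclease preparation, -0.98 there against RNA replicate 1 alone, and 0.54 for low nuclease RPFs against standard RNA. It ran from Mdh1, the cytosolic malate dehydrogenase, at 1195, 1553 and 1193 CPM in RPFs and 214, 232 and 197 CPM in RNA (2.62, SE 0.18), to Bsn, the active zone scaffold bassoon, at 38.1, 34.7 and 39.2 CPM against 274, 192 and 248 CPM (-2.67, SE 0.16).

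Occupancy also moved with the length and makeup of the mRNA. In 5 bins of the genes by coding length, the median was -0.61 in the shortest (22 to 741 nt), -0.14, 0.06 and 0.22 in the next bins, and -0.08 in the longest (2526 to 105600 nt). By the coding percent of the exonic length, the median rose from -0.63 in the lowest of 5 bins (under 32.5%) to 0.15 in the highest (over 77.8%). Scaling each gene by its coding share turned the direction of 4 genes named here. Nova2 went to 0.83, Eif5a2 to 0.69, Nrgn to 0.35 and Hspa8 to -0.06.

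Pellet RPFs of FMR1 KO brain were set against fraction 5/6 RPFs to see which of these levels belong to the fraction. The 2 comparisons share the fraction 5/6 libraries, so values are given side by side only. Of 13329 genes tested, 1341 (10.1%) were higher in the pellet and 185 (1.39%) lower. The count of 1526 genes in either direction was 545 without pellet replicate 1, 709 without pellet replicate 3, 616 without fraction 5/6 replicate 1 and 659 without fraction 5/6 replicate 3. It was 855 when replicate numbers entered the fit as a block, with 839 higher and 16 lower. Without 1 library at a time, the lower genes numbered 9 to 195. In the low nuclease preparation 1449 genes were higher in the pellet and 1661 lower, so the balance of directions depended on the preparation. The median pellet difference rose from -0.33 in the shortest bin of coding lengths to 0.63 in the longest, where 36.6% of the genes were higher. Of the giant ubiquitin ligases and scaffolds, 26 of 29 were higher in the pellet, with a median of 2.27. Herc2, a giant ligase, was at 627, 461 and 566 CPM in the pellet and 40.2, 38.7 and 33.6 CPM in fraction 5/6 (3.88, SE 0.20, adjusted p = 0.00089), and in fraction 5/6 its occupancy was -1.76 (SE 0.13). Mdn1, which remodels preribosomes, was at 157, 107 and 129 CPM against 8.03, 9.28 and 10.1 CPM (3.84, SE 0.19), with an occupancy of -1.51 (SE 0.12). Dync1h1 and Map1b were likewise higher in the pellet, by 4.56 (SE 0.33, adjusted p = 0.00102) and 2.68 (SE 0.42, adjusted p = 0.00999). Cers2, a ceramide synthase, was at 378, 469 and 225 CPM in the pellet and at 0.669, 1.28 and 2.33 CPM in fraction 5/6, the largest rise among called genes whose libraries did not overlap.

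**Figure D4:**
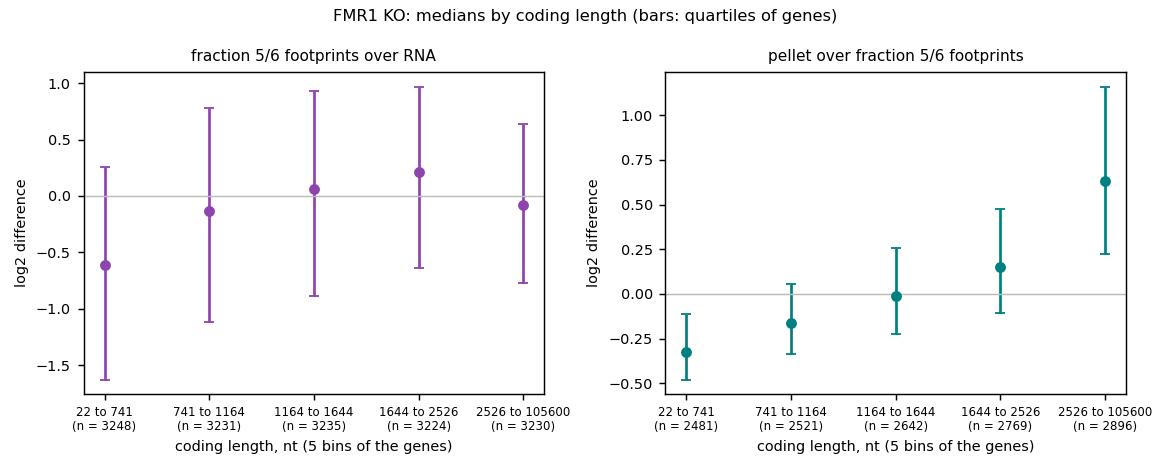
Median log2 difference (points) and quartiles over genes (bars) in 5 bins of the genes by coding length, for fraction 5/6 RPFs over RNA (left) and pellet over fraction 5/6 RPFs (right), FMR1 KO. Occupancy is lowest in the shortest genes (-0.61) and highest in the bin of 1644 to 2526 nt (0.22), while the pellet difference rises at each step, from -0.33 to 0.63.

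Low occupancy in fraction 5/6 came with different pellet values in different classes. Axon guidance and adhesion genes (35 of 65 higher in the pellet, median 1.13) and extracellular matrix genes (18 of 38, median 1.40) had low occupancy in fraction 5/6 and higher RPF levels in the pellet. Ribosomal proteins (none higher and 3 lower of 79, median -0.45) and histones (none higher and 1 lower of 51, median -0.64) had low occupancy and lower medians in the pellet. Potassium channels (none of 14 called) had a pellet median of 0.16, and Kcnq3 was at 6.67, 8.72 and 8.53 CPM in the pellet and 7.48, 9.28 and 9.02 CPM in fraction 5/6. Among classes of high occupancy, the 7 CCT genes (none called, median 0.13) and 32 proteasome genes (2 higher and 3 lower, median -0.28) were near or below 0 in the pellet. The study's lists were higher in the pellet in 86 of 185 genes (Shah), 118 of 262 (Maurin) and 246 of 749 (Darnell), with none lower in any.

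**Figure D5:**
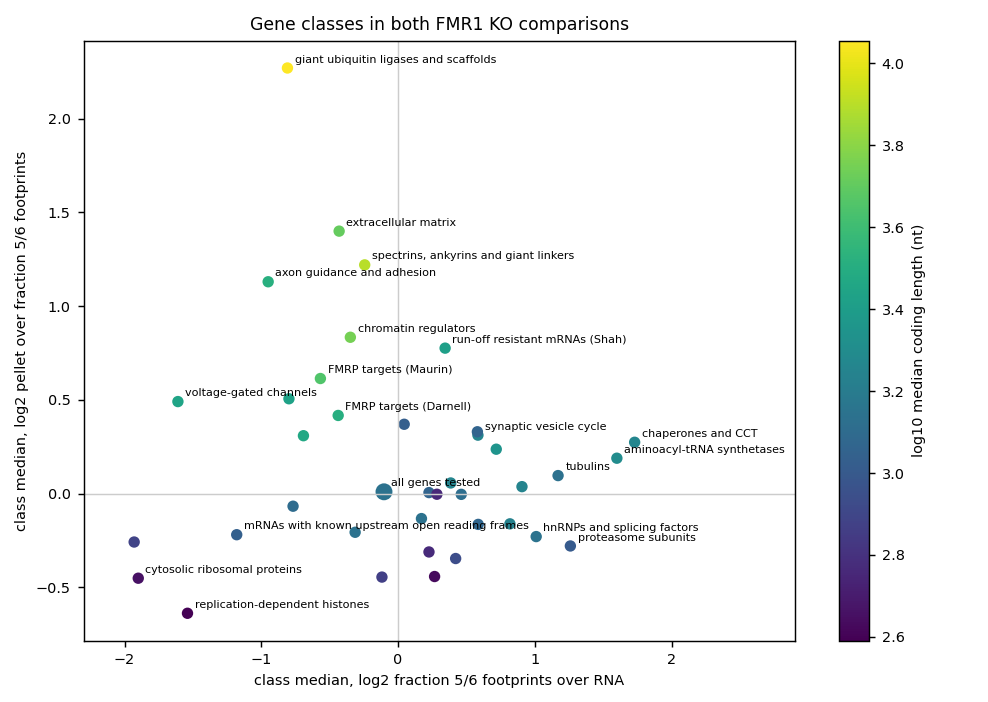
Class medians of occupancy in fraction 5/6 (horizontal axis) and of pellet over fraction 5/6 RPFs (vertical axis), both log2, for 38 classes and all genes tested (large point), coloured by median coding length, with mitochondrially encoded mRNAs left out as only 1 was tested in the pellet. Both axes use the fraction 5/6 libraries, so the plot is a description. Giant ubiquitin ligases lie highest at 2.27 and histones lowest at -0.64.

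The genotype difference asks whether occupancy in fraction 5/6 differed between KO and WT. The WT RNA libraries held 11549 to 11899 counts of chromosome Y against 14 to 26 in the KO RNA, while WT fraction 5/6 held 583 to 1444 against 422 to 1252, and the part of this in the genotype test was not tested. Tested as the interaction of genotype and library type over 12 libraries, none of 16439 genes passed (0%) by edgeR, 835 had an unadjusted p under 0.05, and DESeq2 called 44. In simulated data the same test recovered 2% of genes changed 2-fold and 48% of those changed 4-fold, so a 2-fold difference was mostly not detectable. Without the library labelled WT fraction 5/6 replicate 3, 33 of 16530 genes (0.2%) passed, 3 higher (0.0181%) and 30 lower (0.181%) in the KO, and 1187 had an unadjusted p under 0.05. Fmr1 itself was lower by 1.94 on the log2 scale without that library (SE 0.13, adjusted p = 0.000194), and its difference was -1.37 (adjusted p = 0.866) with it. That library was left out for its Fmr1 level, so the Fmr1 value without it is no test. The largest rise was Fbn1, a fibrillin of the matrix, at 254, 140 and 55.1 CPM in KO RPFs and 1.5 and 4.54 CPM in WT replicates 1 and 2, but 513 CPM in WT replicate 3. The largest falls included Adamts14, a matrix protease, at 0, 0.218 and 0 CPM in the KO and 90.9, 883 and 0.593 CPM in WT, and Igsf11, an adhesion molecule, at 0.908 to 3.17 CPM in the KO and 1704, 7896 and 2.61 CPM in WT. These genes came from the fit without WT replicate 3, so where that library lies in them is no test. In Sdk2, an adhesion molecule named after its values were seen, all 3 WT libraries (35.1, 78.6 and 87.5 CPM) lay above the KO at 4.14 to 5.45 CPM. Leaving out WT replicate 1 or 2 in its place gave 26 and 17 genes. The same library moved the genotype median of the giant ubiquitin ligases from 0.03 without it to -1.17 with it. Of the classes, the granule, adhesion, matrix, Maurin and Darnell lists each held 1 of the 33 genes, and the others held none.

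The largest occupancies were of another kind. Mroh6 and Fam83h, both on chromosome 15 and not overlapping, had 31810, 29720 and 1492 CPM and 31700, 29700 and 1460 CPM in RPFs, almost the same in each library, and at most 3.42 CPM in RNA. Itga9, an integrin, was at 29910, 27310 and 22660 CPM against 1.73 to 4.09 CPM. Tmem247, with no RNA count, was at 604, 526 and 343 CPM in RPFs, at least 93200-fold higher against a floor of 3 counts over the group. Cmss1 and Filip1l, whose spans on chromosome 16 overlap though their annotated exons do not, again had nearly equal levels, at 67450, 54240 and 29570 CPM for Cmss1. Kif13a and Rbm24 were at 109500 and 108800 CPM in RPF replicate 1 but at 16.7 and 7.40 CPM in replicate 3, below their RNA levels of 48.6 to 49.0 CPM and 12.7 to 15.2 CPM. None of the 10 largest rises had a deposited peak, and in the developmental factor Pou3f2, at 10110, 14900 and 2365 CPM, the tallest peak held 28, 56 and 22 fragments of 57681, 129962 and 9901 counts. In the low nuclease preparation Fam83h (-1.27), Cmss1 (-8.40), Filip1l (-8.41) and Pou3f2 (-0.081) were on the other side, but against its RNA replicate 1 alone only Fam83h (-1.51) of these 4 was, with Cmss1 at 6.90, Filip1l at 7.14 and Pou3f2 at 0.34. The reads behind these counts were not analysed here.

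In one gene with a large occupancy the fragments lay at a single place. Tmem38b, an intracellular cation channel, was at 14020, 4688 and 1018 CPM in RPFs and 2.16 to 3.53 CPM in RNA (11.22, SE 1.17). A single peak of 24 bases in its 3' untranslated exon had heights of 83779, 42666 and 4305 fragments, beside gene counts of 79945, 40887 and 4261. It lies at chr4:53860758-53860781 (plus strand, exon 6, GRCm38, GENCODE M21), and capitals mark the 13 bases that belong to n-R5s185, an annotated 5S ribosomal RNA copy at 53860652 to 53860770. The sequence occurs 1 time in the genome.
Tmem38b: GGTGCTGTAGGCTtgaaaaaaaaa
Some falls had no RPF count at all. Fam166a, at 12.4, 11.6 and 11.7 CPM in RNA, was at least 74.0-fold lower in RPFs and overlaps Tubb4b on the opposite strand. Tmem54, at 5.06 to 6.21 CPM, was at least 35.5-fold lower and overlaps Hpca, the calcium sensor hippocalcin, on the opposite strand. Whether the counting used strand is not given in the sources used here, so RNA of the partner gene and of the gene itself cannot be told apart. In all, 161 tested genes had no RPF count and 16 had no RNA count.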

How the data were processed

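Brains were fractionated by the study on sucrose gradients, and RPFs of fraction 5/6, RPFs of the pellet and whole-brain RNA were sequenced. The authors trimmed reads with Cutadapt 2.10, removed rRNA and ncRNA with Bowtie2 2.3.5, aligned to GRCm38 with STAR 2.7.8a, marked duplicates with Picard, removed them with SAMtools 1.19.2 and counted genes with featureCounts 2.2.0. The authors used linker barcodes to separate the pooled samples, and a use of molecule tags in duplicate removal is not described. The deposited table holds raw counts per gene, and the deposited peak files hold heights as counts of RPFs on transcripts, called per sample. Peaks of the other samples were not used here.

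Of 16614 genes, Cdk8, 6 genes of chromosome Y and 26 genes of non-coding biotype were dropped. Counts were filtered with filterByExpr, scaled by TMM and tested with edgeR's quasi-likelihood test (edgeR 4.0.16, limma 3.58.1, R 4.3.3), two-sided, with Benjamini-Hochberg adjustment over all genes tested and a threshold of 0.05. DESeq2 1.42.0 and limma-voom were alternatives, and tables and figures were made in Python 3.11.15. Occupancy was fitted on the 6 FMR1 KO libraries, the pellet difference on 6 RPF libraries and the genotype difference on 12 libraries. In the simulations each gene had the same rate in all libraries, apart from 100 genes changed by each fold. In the occupancy comparison itself 62.8% of genes were called. The recovery rates therefore describe the simulated setting and not that comparison. On simulated data for the occupancy comparison (16187 genes), 85.9% of genes changed 4-fold and 31.3% of those changed 2-fold were recovered. For pellet against fraction 5/6 (13329 genes) these were 74.7% and 12.4%, and for the genotype difference (16439 genes) 48% and 2%. Counts of 0 were bounded by a floor of 3 counts over the group, which covers counting error only. The genes named are the extremes of each class, the members with most RNA, the largest changes and genes fixed by name, apart from those stated as chosen later. The members and gene lists were chosen with earlier results of these data known. Same-numbered libraries correlated at -0.0764 to 0.0823 between RPFs and RNA. Between pellet and fraction 5/6 RPFs, same-numbered libraries correlated at 0.0194, 0.145 and 0.236, and differently numbered ones at -0.239 to 0.123. The replicate numbers were not taken as pairs in the main fits, and fits with them as a block are given as alternatives. Whether pellet and fraction 5/6 libraries of 1 number are pairs was not settled. Some items are not reported here.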

Additional observations from a re-analysis of the deposited data

Results flagged for a closer look

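Fmr1 differed between genotypes in fraction 5/6 occupancy by -1.94 on the log2 scale (-1.939) when the library labelled WT fraction 5/6 replicate 3 was left out, by the interaction term of edgeR's quasi-likelihood test. That library was left out for its Fmr1 level, so this value is no test of Fmr1. With all libraries the difference was -1.37 (adjusted p = 0.866 by the same term). With that library left out, 33 genes passed the same test. Chromosome Y, which was left out of the comparisons, gave at least 72.3 CPM in each FMR1 KO fraction 5/6 library, against at most 0.213 in the FMR1 KO RNA. Cdk8, also left out, took at least 36.7% (36.67%) of the counts in each of these RPF libraries and at most 0.0338% in the RNA.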

How the results depend on the processing

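The 4807 higher and 5361 lower genes became 1312 and 8947 on library size alone, and 2674 and 2643 in the low nuclease preparation. The causes were not tested. Leaving out 1 library gave 4118 to 4766 higher and 4462 to 5405 lower genes. With the replicate number as a block, 4375 were higher and 4902 lower, of which 4320 and 4843 were called the same way without it. For pellet against fraction 5/6, 1526 calls became 163 on library size alone, 855 with the replicate block, 3110 in the low nuclease preparation and 545 to 1385 without 1 library. The genotype count of 0 became 44 in DESeq2, stayed 0 with the block and ran from 0 to 33 without 1 library. Scaling by coding share turned Hspa8 (-0.065), Nova2 (0.83), Eif5a2 (0.69) and Nrgn (0.35). Library size alone turned Hspa8 (-0.37), Actb (-0.021), Ifrd1 (-0.72), Cx3cr1 (-0.43) and Ywhag (-0.37). In the low nuclease preparation, opposite directions were found for Fam83h (-1.27), Eef1a1 (0.040), Eif4g2 (0.14), Eif5a2 (0.11), Tuba1a (0.33), Plec (-1.60), Cacna1d (-0.39), Fbn1 (-2.05), Pou3f2 (-0.081), Mbp (0.20), Apoe (-1.06), Hbb-bs (0.063), Scg2 (-1.33), Rybp (-0.16), Cmss1 (-8.40), Filip1l (-8.41) and Atf2 (-0.55). FMR1 KO RNA low replicates 2 and 3 held 85.0% and 83.4% of their counts in 10 genes, so, as an alternative chosen after seeing the data, replicate 1 was used alone, and Fam83h (-1.51), Eif4g2 (0.095), Fars2 (0.062), Plec (-1.54), Fbn1 (-1.81), Mbp (0.40), Apoe (-0.78), Scg2 (-1.25) and Fxr2 (-0.017) were turned. Low nuclease RPFs against standard RNA turned Fam83h (-0.63), Rpl22 (-1.52), Plec (-0.11), Adgrl1 (0.075), Pou3f2 (-0.30), Ifrd1 (-0.53), Tmem119 (0.77) and Rybp (-0.40). Leaving out genes with copies elsewhere, also chosen after seeing the data, left 14123 genes with 4208 higher and 4548 lower. The RPF depth limits genes near 1 count, which was worth 0.115 to 0.239 CPM. Class medians that changed sign in the low nuclease preparation included those of the Shah list, the synaptic vesicle cycle, histones and astrocyte markers.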
